A study of Mus musculus with 12 samples.

Results

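The genes Fgf4, Fgfr1, Fgfr2, Spry2, Spry4, Spred1, Dusp4, Dusp6, Etv4 and Etv5 make up the FGF-ERK signalling and feedback genes of these mouse embryonic stem cells. These 10 genes were chosen by name from the 47643 genes of the count table, with earlier results of these data known. Counts of them set against all tested genes are therefore descriptions only. All 10 were among the 14629 genes that passed the filter on low counts. PolyA RNA of E14 embryonic stem cells (strain background 129/Ola) was sequenced in 12 libraries, 2 from each of 6 groups that differ in Dicer, the enzyme that cuts miRNA precursors and double-stranded RNA into small RNAs. The cells grew on gelatin in medium with 15% serum and 100 U/mL LIF, and the growth protocol describes selection of the lines with puromycin at 1 µg/mL. The group WT has wild-type Dicer and the group KO is a Dicer knockout. Of the numbered Dicer lines, 41584 is described as similar to WT, 41589 as lacking siRNA processing, and 41585 as lacking both miRNA and siRNA processing. A further group carries the label SOM, whose meaning and small RNA processing the labels do not state. The labels do not say whether a group is 1 clone, or whether its 2 libraries came from separate cultures, so each test measures only the spread between these libraries.

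FGF ligands bind FGF receptors together with heparan sulphate, and the receptors activate Ras, Raf, MEK and the kinase ERK. ERK output induces ETS transcription factors of the Etv group and a set of inhibitors that act back on the pathway: Sprouty and Spred proteins act upstream of or at Raf, and dual-specificity phosphatases remove phosphate from ERK and related kinases. In mouse embryonic stem cells Fgf4 is the main autocrine ligand, and ERK signalling moves the cells out of the naive state, while LIF holds them in it.

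The most abundant miRNAs of mouse embryonic stem cells include the miR-290 and miR-302 families, which share a seed with each other, and the miR-17 family, whose seed is offset from it by 1 base. They are shown because the groups compared differ in miRNA processing. The let-7 sequence printed last belongs to none of these families, and levels of mature miRNAs were not measured here. The mature sequences are from RefSeq, with the seed (bases 2 to 8) in capitals.
mmu-miR-291a-3p: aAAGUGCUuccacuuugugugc
mmu-miR-294-3p: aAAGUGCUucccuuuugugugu
mmu-miR-302b-3p: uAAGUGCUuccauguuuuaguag
mmu-miR-17-5p: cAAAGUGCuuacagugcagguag
mmu-let-7a-5p: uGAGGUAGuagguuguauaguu

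Exact matches to these seeds were searched on the sense strand of the annotated 3′ UTRs of tested genes (GENCODE M21, GRCm38). The letters AGCACTT, complementary to the miR-290/miR-302 seed, were found in 2283 of 12882 3′ UTRs (17.7%) and in 2 of the 10 FGF-ERK genes, Fgf4 and Spred1. The letters GCACTTT of the miR-17 seed, which can overlap the first motif, were in 14.6% of 3′ UTRs and in 3 of the 10, Fgf4, Spry4 and Spred1. The let-7 letters CTACCTC were in 10.8% of 3′ UTRs and in 1 of the 10, Fgf4. Spry2, Dusp4, Dusp6, Etv4, Etv5, Fgfr1 and Fgfr2 had no such letters in the annotated 3′ UTR, which says nothing about binding. The sites are printed with the match in capitals, on the plus strand, because Fgf4 and Spred1 are the 2 genes with a miR-290/miR-302 match.
Fgf4, chr7:144862993-144862999: ccctcaggaggAGCACTTtctctcgatgg
Fgf4, chr7:144863874-144863880: tctatccccatCTACCTCagagttcctga
Spred1, chr2:117180881-117180887: ggaagaattgaAGCACTTtttccttacac
Spred1, chr2:117181223-117181229: ctattacaaatGCACTTTggattcatgtg

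Library depth ranged from 5348401 to 10428509 counts, and mitochondrial genes took 3.17% to 5.18% of counts. Libraries of 1 group correlated at 0.942 to 0.986 (Pearson r of log2 CPM across genes), lowest in 41584 and 41589. The libraries of each group differed by more than sampling noise, with a chi-square per degree of freedom of 5.09 or more, so none was treated as a duplicate. Levels are given as CPM, a gene's share of its library's counts after scaling by TMM factors. Dicer1, checked as the targeted gene, was at 197 and 213 CPM in WT and at 28.5 and 44 CPM in KO, a log2 fold change of -2.50 ± 0.36 (standard error, edgeR adjusted p = 0.0015). In 41585 it was at 29.1 and 39.2 CPM, in 41584 at 42.2 and 54.9 CPM, in 41589 at 40.1 and 27.7 CPM and in SOM at 105 and 215 CPM. No label says whether transcripts of a complementing Dicer construct are counted under Dicer1. The 9 pluripotency markers, Pou5f1, Sox2, Nanog and Zfp42 included, summed to 6800 to 7950 CPM in every library. Dppa5a and Tdgf1, at means of 2460 and 1330 CPM, held the largest part of this sum. Pou5f1 alone was at 140 and 322 CPM in WT and reached 944 CPM in 41585 replicate 1. In KO and 41585 against WT, 41584 and 41589, 2 of these 9 were called higher (Pou5f1 at 0.89, Dppa5a at 0.59) and 1 lower (Zfp42 at -0.50). Of the 7 fibroblast feeder markers Twist2 was at 0 in all 12 libraries and Thy1 alone passed the filter.

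The calls below come from edgeR's quasi-likelihood test fitted on all 12 libraries, with p adjusted over the 14629 genes by the Benjamini-Hochberg method, and a gene was called at an adjusted p under 0.05. The broadest comparison set the lines without miRNA processing (KO and 41585, 4 libraries) against the lines with it (WT, 41584 and 41589, 6 libraries). SOM was left out of that comparison because its processing is not stated. In it 6 of the 10 genes were called, 2 higher (Fgf4, Etv5) and 4 lower (Spry2, Spry4, Dusp4, Etv4) in the lines without miRNA processing. Of all tested genes 33.5% were called, 17.6% higher and 15.9% lower. The median log2 fold change of the 10 genes was -0.11, against -0.012 over all tested genes. The ligand was thus higher while 3 inhibitor genes were lower, and Fgfr1, Fgfr2, Spred1 and Dusp6 did not pass the test.

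**Figure D1:**
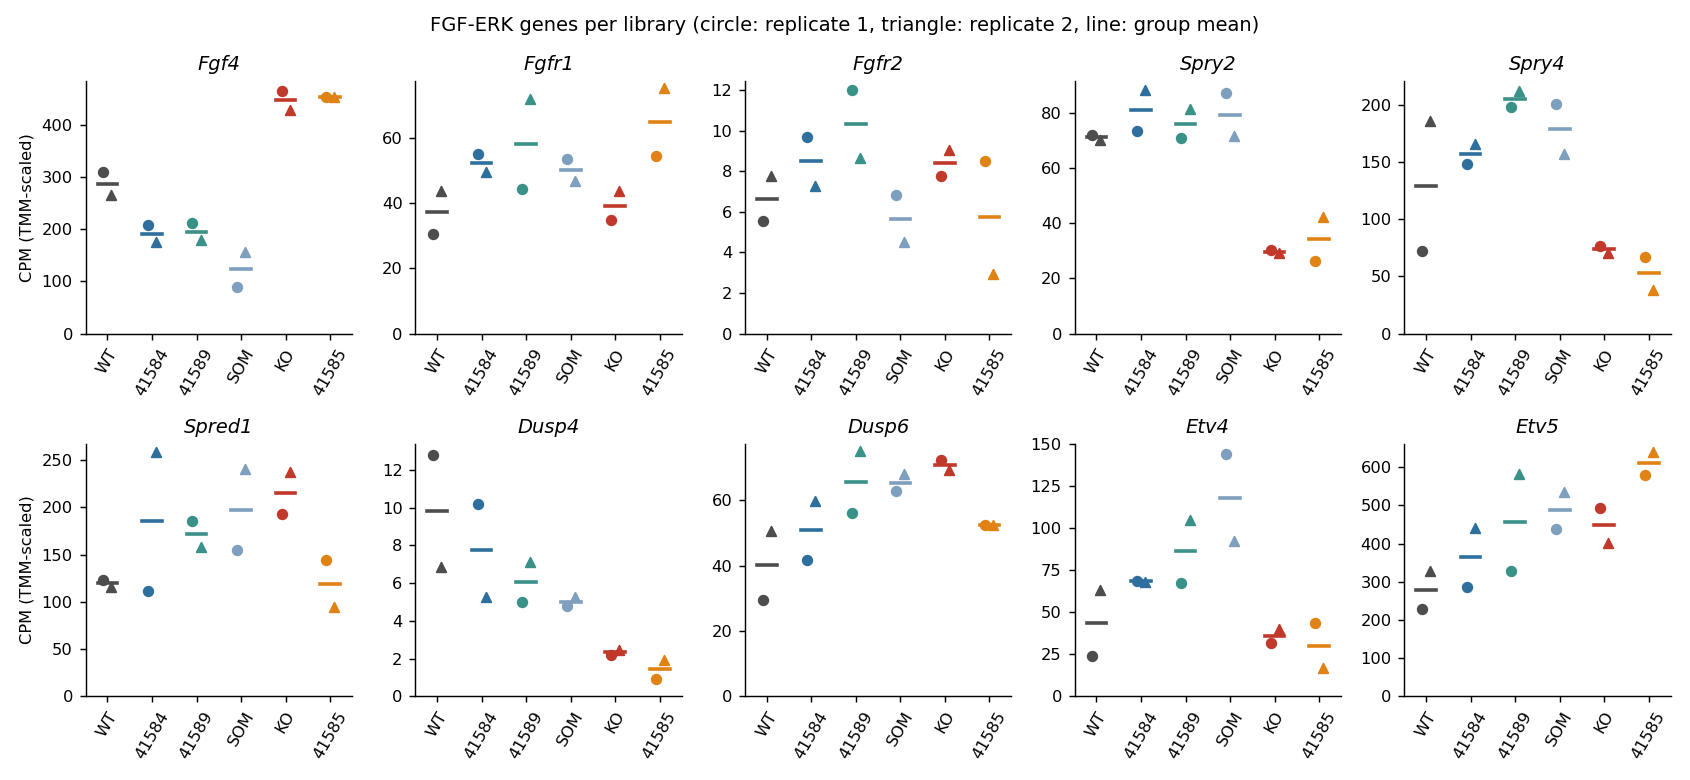
CPM (TMM-scaled, linear axis from 0) of the 10 FGF-ERK genes in every library, by group, with replicate 1 as a circle, replicate 2 as a triangle and the group mean as a line. For Fgf4 the KO and 41585 libraries sit between 428 and 465 CPM, above every other library, and for Spry2 they sit between 26.4 and 42.4 CPM, below every other library.

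Fgf4, the autocrine ligand, was higher in the lines without miRNA processing. Its gene lies at chr7:144847367-144865243 on the plus strand (GRCm38). Fgf4 was at 465 and 428 CPM in KO and at 454 and 453 CPM in 41585. In WT it was at 309 and 266 CPM, in 41584 at 208 and 175 CPM, in 41589 at 211 and 179 CPM, and in SOM at 90 and 157 CPM. All 4 libraries without miRNA processing were above the 8 others, and the libraries of WT were above those of 41584, 41589 and SOM. The pooled log2 fold change was 1.03 ± 0.16 (edgeR adjusted p = 0.000612), with all 4 libraries above the 6 they were compared with. Groups of libraries that do not overlap were found for 21.2% of all tested genes in that comparison. The call for Fgf4 held when each of the 10 libraries was left out in turn.

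Between single lines the difference in Fgf4 varied in size. In 41585 against 41584 its log2 fold change was 1.24 ± 0.26 (edgeR adjusted p = 0.0123). In KO against WT it was 0.64 ± 0.26, which did not pass the test (edgeR adjusted p = 0.119), although the libraries did not overlap. The difference between these effects was -0.61 ± 0.36 on the log2 scale (edgeR interaction term, adjusted p = 0.999), so they were not shown to differ.

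Fgfr1 and Fgfr2 did not pass the test in the pooled comparison. Fgfr1 (chr8:25513654-25575718, plus strand), the main FGF receptor of embryonic stem cells, was at 34.7 and 43.6 CPM in KO and at 30.6 and 43.7 CPM in WT. In 41585 it was at 54.5 and 75.2 CPM, in 41584 at 55.2 and 49.5 CPM, in 41589 at 44.4 and 71.8 CPM and in SOM at 53.6 and 46.9 CPM. These ranges overlap in KO against WT and in 41585 against 41584, and the pooled log2 fold change was 0.06 ± 0.19 (edgeR adjusted p = 0.83). In 41585 against WT Fgfr1 was at 0.80 ± 0.29 and did not pass (edgeR adjusted p = 0.0538). There it passed with DESeq2 (DESeq2 adjusted p = 0.0488), with only the compared groups in the fit (edgeR adjusted p = 0.0322) and with a replicate block (edgeR adjusted p = 0.0365). Fgfr2, a receptor better known from the primitive endoderm and trophectoderm, ranged from 2.95 CPM in 41585 replicate 2 to 12 CPM in 41589 replicate 1. Its pooled log2 fold change was -0.26 ± 0.31 (edgeR adjusted p = 0.539). The annotated Fgfr2 gene spans chr7:130162451-133123350 on the minus strand in this annotation and shares 314 exonic bases with Ctbp2, and 164 exonic bases of Fgfr1 lie opposite the antisense gene Gm16159. Counts of Fgfr2 and Fgfr1 are therefore uncertain where the authors' counting could split such reads.

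Spry2, a Sprouty inhibitor of receptor tyrosine kinase signalling, was lower in every library without miRNA processing. The gene lies at chr14:105891947-105896819 on the minus strand. Spry2 was at 30.3 and 29.2 CPM in KO and at 26.4 and 42.4 CPM in 41585. It was at 72.2 and 70.1 CPM in WT, at 73.5 and 88.5 CPM in 41584, at 71 and 81.3 CPM in 41589 and at 87.3 and 71.5 CPM in SOM. The 8 libraries of the latter groups lay within a narrow range, and the 4 others lay clearly below it with no overlap. The pooled log2 fold change was -1.25 ± 0.17 (edgeR adjusted p = 0.000203), and it was called without each of the 10 libraries in turn. The value was -1.26 ± 0.26 in KO against WT (edgeR adjusted p = 0.00925) and -1.24 ± 0.25 in 41585 against 41584 (edgeR adjusted p = 0.0112).

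Spry4, the second Sprouty gene measured here, was lower in the lines without miRNA processing, but 1 WT library lay among them. Its gene is on chromosome 18. Spry4 was at 76.9 and 70.4 CPM in KO, at 66.8 and 38.3 CPM in 41585, and at 72.5 and 186 CPM in WT. In 41584 it was at 148 and 166 CPM, in 41589 at 198 and 212 CPM and in SOM at 201 and 157 CPM. WT replicate 1 lay between the KO libraries, and the other libraries with miRNA processing were at 148 CPM or more. In the pooled comparison Spry4 had a log2 fold change of -1.37 ± 0.25 (edgeR adjusted p = 0.00143), called without each of the 10 libraries in turn. In 41585 against 41584 it was -1.58 ± 0.38 (edgeR adjusted p = 0.0204). In KO against WT it was -0.81 ± 0.37 and did not pass (edgeR adjusted p = 0.161), but passed without the low-count filter (edgeR adjusted p = 0.039). Without WT replicate 2 the log2 fold change of KO against WT was 0.02.

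Spred1, which blocks activation of Raf together with neurofibromin, did not separate the groups. It lies at chr2:117121374-117182279 on the plus strand. Spred1 was at 193 and 237 CPM in KO and 123 and 116 CPM in WT, but at 144 and 94.4 CPM in 41585 and 111 and 259 CPM in 41584. In 41589 it was at 185 and 158 CPM and in SOM at 155 and 240 CPM. KO lay above WT with no overlap, whereas the libraries of 41585 and 41584 overlapped. KO and WT libraries did not overlap for 71.5% of all tested genes. The log2 fold change of Spred1 was 0.85 ± 0.36 in KO against WT (edgeR adjusted p = 0.131) and -0.63 ± 0.36 in 41585 against 41584 (edgeR adjusted p = 0.232). The former passed without the low-count filter (edgeR adjusted p = 0.0183) and with only the compared groups in the fit (edgeR adjusted p = 0.00296). The difference between the effects was 1.48 ± 0.50 with an unadjusted p of 0.0116, but its edgeR adjusted p over all genes was 0.999. That interaction test was added after the data had been seen, and it called 0 of 14629 genes with edgeR, 419 of them at an unadjusted p under 0.05; no other tool was run on it.

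Dusp4, a nuclear dual-specificity phosphatase of ERK and related kinases, had the pooled log2 fold change of largest size among the 10 genes. It lies at chr8:34807297-34819894 on the plus strand. Dusp4 was low everywhere, at 2.19 and 2.46 CPM in KO and at 0.934 and 1.93 CPM in 41585. In WT it was at 12.8 and 6.88 CPM, in 41584 at 10.2 and 5.28 CPM, in 41589 at 5.02 and 7.11 CPM and in SOM at 4.79 and 5.25 CPM. All 8 libraries of these groups were above the 4 of KO and 41585. Dusp4 had a pooled log2 fold change of -2.08 ± 0.36 (edgeR adjusted p = 0.000969), called without each of the 10 libraries in turn. The value was -2.07 ± 0.52 in KO against WT (edgeR adjusted p = 0.0234) and -2.44 ± 0.54 in 41585 against 41584 (edgeR adjusted p = 0.0156).

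Dusp6, a cytoplasmic phosphatase of ERK, did not follow Dusp4. It lies at chr10:99263231-99267489 on the plus strand. Dusp6 was at 72.3 and 69.2 CPM in KO and at 29.5 and 50.7 CPM in WT. In 41585 it was at 52.5 and 52.4 CPM, in 41584 at 41.7 and 59.8 CPM, in 41589 at 56 and 75 CPM and in SOM at 62.8 and 67.9 CPM. KO was above WT with no overlap, while 41585 lay between the libraries of 41584. Lack of overlap between KO and WT was found for 71.5% of all tested genes. The pooled log2 fold change was 0.25 ± 0.18 (edgeR adjusted p = 0.294) and that of KO against WT was 0.82 ± 0.28 (edgeR adjusted p = 0.0724). The latter passed with the replicate numbers as a block, at 0.86 (edgeR adjusted p = 0.0389). It also passed with only the compared groups in the fit, at 0.81 (edgeR adjusted p = 0.0216).

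The ETS factors Etv4 and Etv5, transcription factors induced by FGF signalling, were called in opposite directions in the pooled comparison. Across the 12 libraries their levels were unrelated (Pearson r of log2 CPM 0.03). Against WT both had log2 fold changes above 0 in 41584, 41589 and SOM, none of them called by edgeR. Etv4 (chr11:101769742-101785371, minus strand) was at 31.9 and 39.8 CPM in KO, at 43.4 and 16.6 CPM in 41585 and at 24.2 and 63.1 CPM in WT. It was at 68.8 and 68.1 CPM in 41584, at 67.6 and 105 CPM in 41589 and at 144 and 92.5 CPM in SOM. WT replicate 1 again lay within the range of the lines without miRNA processing, and SOM held the highest library. The pooled log2 fold change was -0.96 ± 0.31 (edgeR adjusted p = 0.0298). That call was kept in 5 of the 10 fits that leave out 1 library, and was lost without WT 2, KO 1, KO 2, 41585 2 or 41589 2 (group and replicate number). It was also lost without replicate 2 of 41584 and of 41589, at -0.84 (edgeR adjusted p = 0.0741). The largest adjusted p among the fits without 1 library was 0.116, without KO 1. In KO against WT the value was -0.29 ± 0.46 (edgeR adjusted p = 0.706), and without WT replicate 2 it was 0.56.

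Etv5 (chr16:22381309-22439719, minus strand) had the highest mean level per length of the 10 genes. It was at 494 and 402 CPM in KO and 581 and 641 CPM in 41585. In WT it was at 229 and 329 CPM, in 41584 at 286 and 442 CPM, in 41589 at 329 and 583 CPM and in SOM at 438 and 536 CPM. The 41585 libraries lay above those of WT and 41584, but KO overlapped with 41584, 41589 and SOM. Etv5 differed by a pooled log2 fold change of 0.54 ± 0.20, just under the threshold (edgeR adjusted p = 0.0489). It was called in 3 of the 10 fits without 1 library, those without WT 2, 41584 2 and 41589 2. It was also lost with DESeq2's size factors in edgeR (Etv5 adjusted p = 0.0565), with only the compared groups in the fit (edgeR adjusted p = 0.0615), and with SOM added to the lines with miRNA processing, at 0.43 (edgeR adjusted p = 0.0906).

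**Figure D2:**
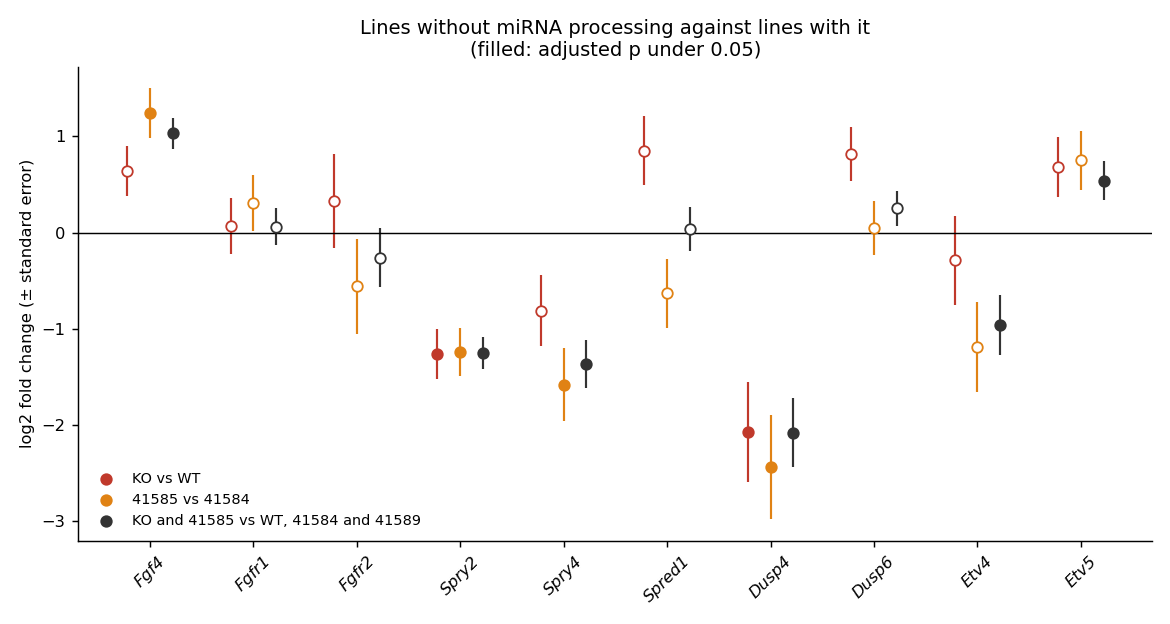
Log2 fold change with its standard error for each of the 10 FGF-ERK genes in KO against WT, in 41585 against 41584, and in KO and 41585 together against WT, 41584 and 41589; filled points had an edgeR adjusted p under 0.05. Spry2 lies between -1.26 and -1.24 in the 3 comparisons, and Spred1 has values of opposite sign in KO against WT (0.85) and 41585 against 41584 (-0.63).

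KO against WT asks what follows loss of Dicer. Of the 10 genes 2 were called, both lower (Spry2 and Dusp4), against 13.2% of all tested genes, 5.9% lower and 7.29% higher. Libraries of KO and WT did not overlap for 71.5% of all tested genes and for 7 of the 10, of which 5 were higher in KO. The calls of Spry2 and of Dusp4 each held in 1 of 4 fits without 1 library, that without WT 2. They were lost without WT 1, KO 1 or KO 2, with adjusted p up to 0.0992 for Spry2 and up to 0.198 for Dusp4. 41585 against 41584 sets lines without and with small RNA processing against each other. In it 4 of the 10 were called, Fgf4 higher and Spry2, Spry4 and Dusp4 lower, against 12.7% of all tested genes, 7.65% higher and 5.07% lower. Libraries did not overlap for 58.9% of all tested genes and for 6 of the 10. In fits without 1 of its 4 libraries the calls held in 2 for Fgf4, 3 for Spry2, 2 for Spry4 and 2 for Dusp4. Fgf4 was lost without 41585 1 or 41585 2, Spry2 without 41585 1, Spry4 without 41585 2 or 41584 2, and Dusp4 without 41585 1 or 41584 1. These fits had edgeR adjusted p of up to 0.0655 for Fgf4, 0.113 for Spry2, 0.138 for Spry4 and 0.135 for Dusp4. With only these 2 groups in the fit none of the 4 was called, with edgeR adjusted p of 0.0546 for Fgf4, 0.0717 for Spry2, 0.0521 for Spry4 and 0.0852 for Dusp4.

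41585 against WT called 4 of the 10, Etv5 higher by 1.13 ± 0.31 (edgeR adjusted p = 0.0197) and Spry2, Spry4 and Dusp4 lower. Spry2 was at -1.05 ± 0.25 (edgeR adjusted p = 0.0117), Spry4 at -1.30 ± 0.37 (edgeR adjusted p = 0.0234) and Dusp4 at -2.77 ± 0.54 (edgeR adjusted p = 0.00546). This stood against 29.2% of all tested genes, 16.3% higher and 12.9% lower. Libraries did not overlap for 75% of all tested genes and for 7 of the 10. Of 4 fits without 1 library each call held in 2 for Spry2 and for Dusp4 (lost without WT 1 or 41585 1), in 2 for Spry4 (lost without WT 2 or 41585 2) and in 1 for Etv5 (that without WT 2). In 41585 against KO, the groups that both lack miRNA processing, 0 of the 10 and 0% of all genes were called by edgeR, with 995 genes at an unadjusted p under 0.05 and 1 called by DESeq2.

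The groups 41584, 41589 and SOM were each set against KO, and the 3 comparisons share the KO libraries. Spry2 was called higher than in KO in 41584 at 1.44 ± 0.26 (edgeR adjusted p = 0.00564), in 41589 at 1.35 ± 0.26 (edgeR adjusted p = 0.00775) and in SOM at 1.41 ± 0.26 (edgeR adjusted p = 0.00765). Fgf4 was called lower in 41584 at -1.22 ± 0.26 (edgeR adjusted p = 0.0147), in 41589 at -1.19 ± 0.26 (edgeR adjusted p = 0.0166) and in SOM at -1.85 ± 0.27 (edgeR adjusted p = 0.00237). Of the 10 genes 2 were called in 41584 against KO, against 7.44% of all tested genes, 2.46% higher and 4.98% lower. In 41589 against KO 3 were called, the third being Spry4 at 1.47 (edgeR adjusted p = 0.0339), against 7.09%, 2.44% higher and 4.65% lower. In SOM against KO 3 were called, the third being Etv4 at 1.72 (edgeR adjusted p = 0.0499), against 6.08%, 1.48% higher and 4.6% lower. Of these calls Fgf4 in SOM held in all 4 fits without 1 library, and Spry4 in 41589 and Etv4 in SOM held in 0 of 4. Spry2 held in 2 fits in 41584 and in 41589 and in 1 in SOM, and Fgf4 in 1 in 41584 and in 41589; all were lost without KO 1 and without KO 2. Spry2 in SOM was also lost without SOM 1, and Fgf4 without replicate 2 of 41584 and of 41589 in their comparisons.

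Between 41589, which lacks siRNA processing, and 41584 no FGF-ERK gene was called. In this comparison 0 of the 10 and 0% of all genes were called by edgeR; 103 genes, none of the 10 among them, had an unadjusted p under 0.05, and DESeq2 called 0. The log2 differences of the 10 genes ran from -0.36 for Dusp4 to 0.38 for Spry4, which does not show that the lines are alike. In 41589 against 41585, lines that both lack siRNA processing and differ in miRNA processing, 4 of the 10 were called against 8.33% of all tested genes, 3.11% higher and 5.22% lower. Spry2 was higher by 1.15 (edgeR adjusted p = 0.0174), Spry4 by 1.96 (edgeR adjusted p = 0.01) and Dusp4 by 2.08 (edgeR adjusted p = 0.0327) in 41589, and Fgf4 was lower at -1.22 (edgeR adjusted p = 0.0156). Of 4 fits without 1 library the call held in 3 for Spry2 (lost without 41585 1), in 3 for Spry4 (lost without 41585 2), in 1 for Fgf4 (that without 41589 2) and in 0 for Dusp4. When the fit held 41589 and 41585 alone, the calls of Spry2 (edgeR adjusted p = 0.107) and Dusp4 (edgeR adjusted p = 0.105) were lost.

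Against WT, none of the 10 was called by edgeR in 41584, 41589 or SOM, and 0% of all genes were called in each of the 3. Unadjusted p under 0.05 were found for 1 of the 10 in 41584, 3 in 41589 and 4 in SOM, among 706, 1719 and 3175 genes of all tested. DESeq2 called 28, 69 and 673 genes, and in SOM it called Fgf4 lower at -1.20 (DESeq2 adjusted p = 0.00351) and Etv4 higher at 1.44 (DESeq2 adjusted p = 0.0403). Fgf4 was at 124 ± 47.5 CPM (SD, n = 2) in SOM and at 287 ± 30.4 CPM (SD, n = 2) in WT, with no overlap. Libraries of SOM and WT did not overlap for 59.8% of all tested genes and for 7 of the 10.

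Per length of merged exons the mean levels over the 12 libraries were ordered as follows. Etv5 was highest at 107 CPM per kb, and Fgf4 was at 88.5 CPM per kb. Spry2 at 29.7, Spry4 at 27.9, Spred1 at 24.7, Etv4 at 20.5 and Dusp6 at 18.4 CPM per kb were close to each other. Fgfr1 at 5.1, Dusp4 at 1.97 and Fgfr2 at 0.731 CPM per kb were the lowest. By the longest transcript Fgfr1 came to 9.98 and Fgfr2 to 1.7 CPM per kb, so the levels of the receptors depend on the length used.

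The 10 genes did not vary as 1 block across libraries. Over the 12 libraries, which share 6 lines and their scaling, Pearson r of log2 CPM was 0.91 for Spry4 with Etv4, 0.83 for Spry2 with Dusp4 and 0.76 for Spry2 with Spry4. Dusp6 went with Etv5 at 0.71, which ranked Etv5 only 329 of 10455 genes by likeness to Dusp6, while Etv4 and Etv5 were at 0.03. Fgf4 ran against Etv4 (-0.87), Spry2 (-0.85) and Spry4 (-0.84). Of 10455 genes with a mean of at least 5 CPM, the 5 most like Spry4 by this measure were Mtfr1l (0.948), Zfp740 (0.946), Odc1 (0.938), Gprc5b (0.935) and Inpp5b (0.933), with Etv4 at rank 12. The 5 most like Dusp6 were Arhgdib (0.918), B3galnt1 (0.917), Mdh1 (0.895), Rlbp1 (0.885) and Hnrnpl (0.884).

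**Figure D3:**
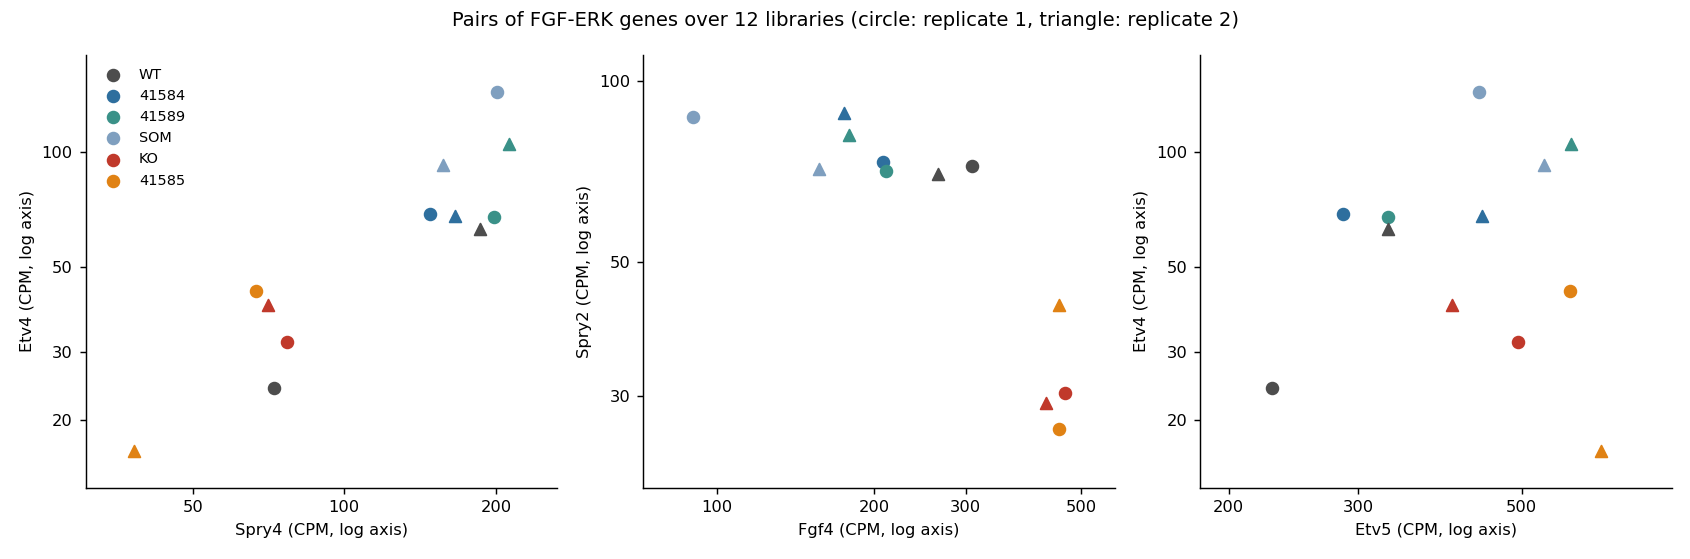
CPM of 3 pairs of FGF-ERK genes in the 12 libraries on log axes, coloured by group, with replicate 1 as a circle and replicate 2 as a triangle. Spry4 and Etv4 run together with WT replicate 1 beside KO, Fgf4 and Spry2 split KO and 41585 from the rest, and Etv4 against Etv5 shows no common line (r = 0.03).

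Promoters are shown for Dusp6 and Etv5, which hold the motif described here, and for Spry2. RefSeq promoters (GRCm38.p6, 250 bases before to 50 after the start) matched 6 of the 10 genes with 7 promoters, Etv5 having 2. The letters TGAATG, a form of the core of sites bound by the repressor Capicua, were searched on both strands. They were in 12.7% of 32851 promoters and in 2 of the 7, with 1 match in Dusp6 and 3 in 1 Etv5 promoter. Other forms of that core were not searched, and a promoter without TGAATG may hold them. The ETS letters CCGGAAG were in 8.86% of promoters and in 0 of the 7. A match is a description of letters only. Each promoter is given 5′ to 3′ on the gene's strand, with TGAATG or its complement in capitals. Spry2 is shown as a promoter of a called gene without TGAATG, which does not show that it lacks Capicua sites.
Dusp6, chr10:99262981-99263280, plus strand: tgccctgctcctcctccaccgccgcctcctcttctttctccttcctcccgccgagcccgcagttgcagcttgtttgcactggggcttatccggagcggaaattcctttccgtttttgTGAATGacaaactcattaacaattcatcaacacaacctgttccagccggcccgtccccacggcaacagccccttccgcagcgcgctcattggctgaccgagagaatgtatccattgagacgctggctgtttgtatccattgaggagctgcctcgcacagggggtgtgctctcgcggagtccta
Etv5, chr16:22438319-22438618, minus strand: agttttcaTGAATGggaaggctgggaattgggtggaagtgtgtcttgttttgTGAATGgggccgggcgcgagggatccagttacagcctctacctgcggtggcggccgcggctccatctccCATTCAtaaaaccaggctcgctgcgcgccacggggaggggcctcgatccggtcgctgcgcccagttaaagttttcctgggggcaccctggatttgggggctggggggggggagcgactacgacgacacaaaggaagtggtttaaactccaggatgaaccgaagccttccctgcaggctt
Spry2, chr14:105896770-105897069, minus strand: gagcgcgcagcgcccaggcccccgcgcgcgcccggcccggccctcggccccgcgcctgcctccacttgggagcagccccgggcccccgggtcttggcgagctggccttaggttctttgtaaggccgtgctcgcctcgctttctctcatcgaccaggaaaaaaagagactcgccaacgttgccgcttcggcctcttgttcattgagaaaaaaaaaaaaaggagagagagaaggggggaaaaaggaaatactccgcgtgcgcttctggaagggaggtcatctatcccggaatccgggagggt

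The rest of the pathway was read from lists by role, 97 genes in all of which 78 were tested. These lists, like the marker lists below, were chosen with earlier results of these data known, so their counts are descriptions only. In the pooled comparison 8 of 12 tested genes among the other ERK-responsive genes were called higher and 0 lower, with a median log2 fold change of 1.18 over the 12. Of all tested genes 33.5% were called in this comparison, 17.6% higher and 15.9% lower. Phlda1, a gene induced by ERK, was at a mean of 13.2 CPM without and 3.51 CPM with miRNA processing, 1.91 ± 0.29 (edgeR adjusted p = 0.000439). Egr1, an immediate early transcription factor, was at 126 and 61 CPM, 1.22 ± 0.21 (edgeR adjusted p = 0.00107). Ccnd1, which encodes cyclin D1, had the highest level per length of this list and was at 232 and 85.3 CPM, 1.59 ± 0.32 (edgeR adjusted p = 0.00279). In 41585 against 41584 neither Egr1 (0.96 ± 0.34, edgeR adjusted p = 0.0729) nor Ccnd1 (1.19 ± 0.51, edgeR adjusted p = 0.131) was called. For Egr1 41589 replicate 2, at 113 CPM, lay above 41585 replicate 2 at 103 CPM, and SOM was at 102 and 105 CPM. With miRNA processing Ccnd1 ran from 29.6 CPM in WT replicate 1 to 163 CPM in 41584 replicate 2. Elk4, an ETS factor of the ternary complex group, was at 50.6 and 18.5 CPM, 1.46 ± 0.18 (edgeR adjusted p = 0.000111). Elk1, Elk3 and Elk4 stand in the list as factors of that group, and their RNA is not a measure of ERK activity. Between single lines 4 of the 12 were called in KO against WT, where 13.2% of all tested genes were, and 2 of 12 in 41585 against 41584, near the 12.7% of all tested genes. In the pooled comparison the 8 called genes thus had the opposite sign to Spry2, Spry4, Dusp4 and Etv4. They had the same sign as Fgf4 and Etv5, the 2 of the 10 FGF-ERK genes called higher. The 4 other genes of the list did not pass the test.

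Other feedback inhibitors were called higher in 4 of 11 tested and lower in 0 in the pooled comparison (median 0.26). Of all tested genes 33.5% were called there, 17.6% higher and 15.9% lower. The share called in this list is near that of all tested genes, so nothing is read from the count. Dusp14 was at 21 and 2.61 CPM, 3.04 ± 0.27 (edgeR adjusted p = 1.07e-05). Dusp1, an immediate early phosphatase of MAP kinases, was at 64.6 and 18.9 CPM, 1.80 ± 0.19 (edgeR adjusted p = 3.65e-05). Dusp5, a nuclear phosphatase of ERK, was at 17 and 5.21 CPM, 1.69 ± 0.24 (edgeR adjusted p = 0.000301). The called phosphatase genes went both ways, with Dusp4 lower and Dusp1, Dusp5 and Dusp14 higher, while Dusp6, Dusp7 and Dusp9 were not called. Spred2, the member of this list with the highest level per length, was at -0.08 ± 0.13 (edgeR adjusted p = 0.67).

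**Figure D4:**
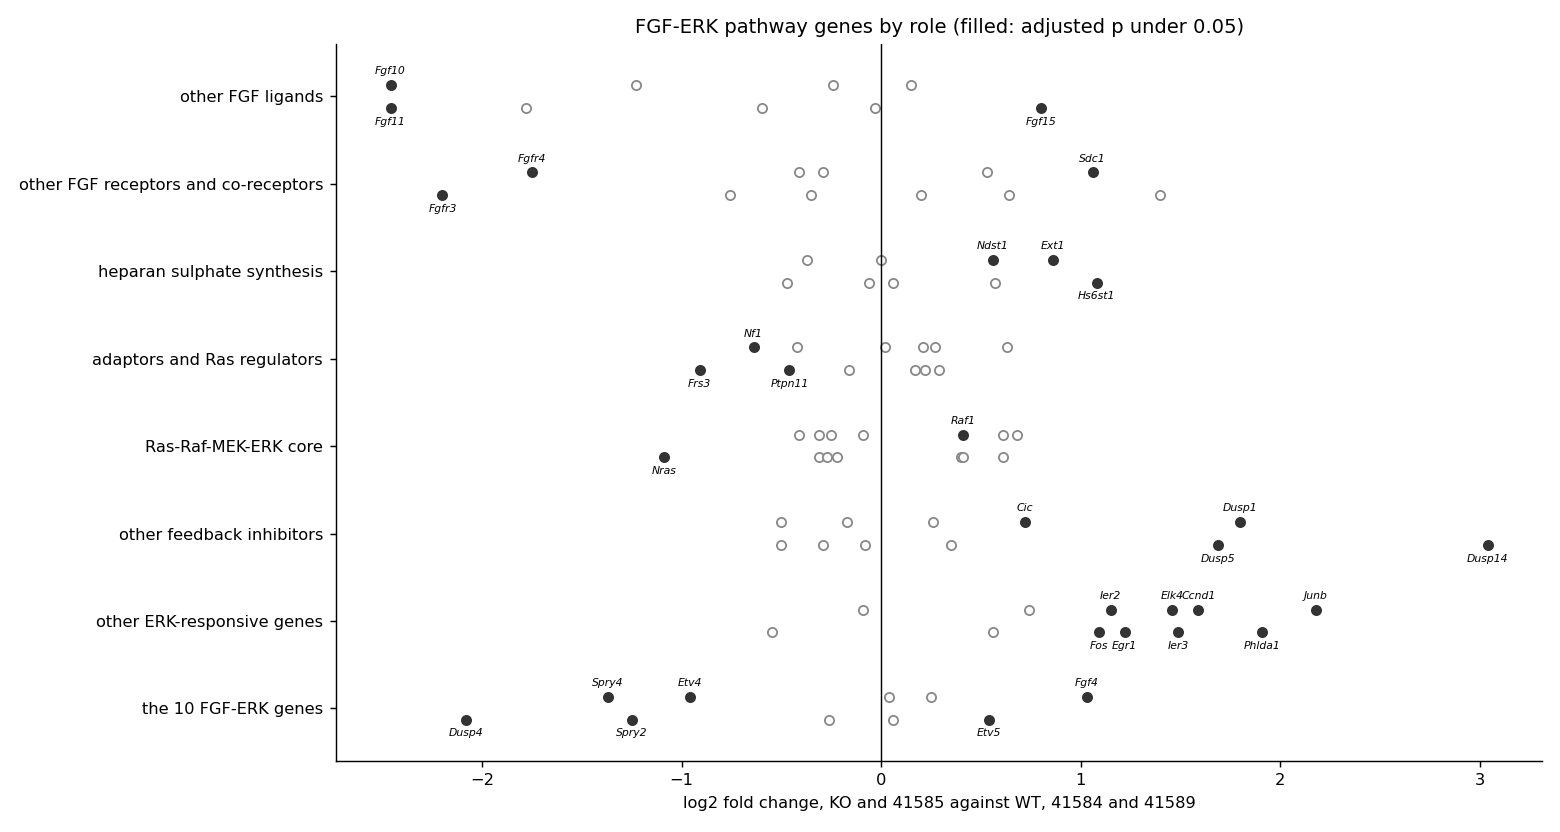
Log2 fold change of the tested pathway genes in KO and 41585 against WT, 41584 and 41589, by role, with filled and named points at an edgeR adjusted p under 0.05. All 8 called genes among the other ERK-responsive genes lie to the right of 0, while the 10 FGF-ERK genes in the bottom row lie on both sides.

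Upstream of ERK the share of called genes in each list was at or below the 33.5% of all tested genes, so nothing is read from these counts. Of 9 other FGF ligands tested 1 was called higher and 2 lower, among them Fgf11, an intracellular FGF family member, at 0.959 and 5.37 CPM (-2.46 ± 0.38, edgeR adjusted p = 0.000492). Fgf15, a secreted FGF with the highest level per length of that list, was at 0.80 ± 0.26 (edgeR adjusted p = 0.0347), a call held in 3 of 10 fits without 1 library, those without WT 2, 41584 2 and 41589 2. Of 11 other receptors and co-receptors 1 was called higher and 2 lower. The lower ones were the receptor genes Fgfr3 at -2.20 ± 0.57 (edgeR adjusted p = 0.0104) and Fgfr4 at -1.75 ± 0.49 (edgeR adjusted p = 0.0164), named after their values were seen. Their means over the 12 libraries were 1.56 and 2.41 CPM, and the Fgfr4 call was lost without KO 1 or 41585 2. The syndecan Sdc1, a heparan sulphate proteoglycan, was at 41.4 and 19.9 CPM (1.06 ± 0.20, edgeR adjusted p = 0.00205). Sdc4, with the highest level per length there, was at 0.20 ± 0.21 (edgeR adjusted p = 0.498). Of 9 heparan sulphate synthesis genes 3 were called higher, among them the 6-O-sulphotransferase gene Hs6st1 at 120 and 56.8 CPM (1.08 ± 0.18, edgeR adjusted p = 0.000845). The polymerase gene Ext1 was at 104 and 58.5 CPM (0.86 ± 0.16, edgeR adjusted p = 0.00175), and Hs6st1 had the highest level per length of this list.

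Between receptor and ERK, 3 of 12 adaptors and Ras regulators were called lower and 0 higher, with a median of 0.1 over the list. Gab1, a docking protein with the highest level per length of that list, was at 0.29 ± 0.16 (edgeR adjusted p = 0.184). Of 14 genes of the Ras-Raf-MEK-ERK core 1 was called higher and 1 lower. The lower was the GTPase gene Nras, at 112 and 238 CPM (-1.09 ± 0.15, edgeR adjusted p = 0.000202), and it was also called in KO against WT (-1.14) and in 41585 against 41584 (-1.22). In KO against WT the call of Nras held in 1 of 4 fits without 1 library and was lost without WT 1, KO 1 or KO 2. In 41585 against 41584 it was lost without 41585 1 and with only the compared groups in the fit. The pooled calls of Dusp14, Dusp1, Elk4, Nras, Dusp5, Phlda1, Fgf11, Hs6st1, Egr1, Ext1, Sdc1 and Ccnd1 held in all 17 other fits run, the 10 without 1 library included.

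Markers of other cell states moved in the same comparison, in which 33.5% of all tested genes were called, 17.6% higher and 15.9% lower. Primitive endoderm markers, several of which depend on FGF signalling in the embryo, were called lower in 5 of 7 tested and higher in 0. The 9 markers summed to 45.7 to 60.6 CPM in KO and 41585, to 70.9 to 264 CPM in WT, 41584 and 41589 and to 121 to 171 CPM in SOM. Lama1 and Col4a1, at means of 69.5 and 23.1 CPM over the 12 libraries, held the largest part of this sum. The called Gata6, Sox7, Pdgfra and Dab2 were low, at means of 1.62, 1.34, 3.6 and 6.9 CPM, and Gata4, at 0.91, was not called. Trophectoderm markers were called higher in 4 of 6 and lower in 1, and the 8 summed to 70.4 to 330 CPM without miRNA processing, to 36.2 to 100 CPM with it and to 36.4 to 44 CPM in SOM. Formative epiblast markers were called higher in 3 of 4, with the 6 summing to 308 to 491 CPM, 69.5 to 294 CPM and 192 to 232 CPM in the same order. Neuroectoderm markers were called higher in 2 of 3 and lower in 1, at 46.5 to 62.6 CPM, 14.7 to 28.2 CPM and 19.9 to 26.4 CPM in sum. Among defining markers Cdx2 of the trophectoderm and Sox17 and Foxa2 of the primitive endoderm did not pass the filter, with means of 0.0608, 0.344 and 0.163 CPM. In bulk RNA fewer cells of a state and less RNA per cell cannot be told apart, and the part of these states in the FGF-ERK differences was not tested.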

How the data were processed

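PolyA RNA was sequenced from a reverse-stranded library protocol, per the labels' protocols. The authors aligned reads with STAR 2.4.2a to mm10/GRCm38, per the submitters' processing notes; no source used here names the counting program or annotation. The deposited table holds raw counts per Ensembl gene. Symbols came from GENCODE M21, and 47224 of 47643 IDs matched.

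Counts were tested with edgeR 4.0.16 (R 4.3.3): TMM scaling, filterByExpr, 1 mean per group over all 12 libraries, robust quasi-likelihood test, 6 residual degrees of freedom, common biological coefficient of variation 0.278, and Benjamini-Hochberg adjustment over 14629 genes. The standard error is the log2 fold change divided by the square root of F. Means are of CPM, fold changes are from the fit, and correlations used log2(CPM + 0.5). The test was checked on simulated counts for KO against WT, with 50 genes changed at each size. It recovered 12% of 2-fold, 72% of 4-fold and 98% of 8-fold changes, with 5 calls among unchanged genes. Differences near 2-fold were thus mostly missed there. Far fewer genes were changed in the simulation than the 1929 called in the real comparison. This makes the adjusted threshold stricter, so the shares recovered may be too low for the real data. Groups came from the labels, 13 comparisons were made, and depth was 5348401 to 10428509 counts.

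Alternatives were DESeq2 1.42.0, its size factors in edgeR, no low-count filter, only the compared groups in the fit, a replicate block, leaving out each library, leaving out replicate 2 of 41584 and of 41589, and adding SOM to the pooled comparison. Named genes were the 10 genes, Dicer1, at most 12 called pathway genes by smallest pooled p, the gene with the highest level per length of each role (that of the Ras-Raf-MEK-ERK core is not reported here), and the 5 genes most like Spry4 and Dusp6. Marker genes named for a state and genes shown only as called points were chosen after their values were seen. Members and lists were chosen with earlier results of these data known.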

Additional observations from a re-analysis of the deposited data

How the results depend on the processing

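With 2 libraries per group precision is set by their number, and low genes such as Dusp4 rest on few counts. In the pooled comparison Fgf4, Spry2, Spry4 and Dusp4 kept their call and direction under every alternative run. The number of the 10 genes called moved by over 1.5 times in these cases. KO against WT went from 2 to 4 without the low-count filter, with Spry4 and Spred1 added. It went to 6 with only the compared groups, with Fgf4, Spred1, Dusp6 and Etv5 added. 41585 against 41584 went from 4 to 0 with only the compared groups, and 41589 against 41585 from 4 to 2. 41584 against KO went from 2 to 4 with DESeq2, 5 without the filter and 1 with only the compared groups. 41589 against WT went from 0 to 1 without the filter. SOM against WT went from 0 to 2 with DESeq2, 3 without the filter and 4 with only the compared groups. The cause was not tested. Leaving out 1 library gave 0 to 2 of the 10 in KO against WT, 1 to 4 in 41585 against 41584, 1 to 3 in 41585 against WT, 0 to 2 in 41584 against KO, 0 to 2 in 41589 against KO, 1 to 2 in SOM against KO, 1 to 3 in 41589 against 41585 and 4 to 6 in the pooled comparison. Levels per length by the longest transcript were 9.98 for Fgfr1 and 1.7 for Fgfr2, in place of 5.1 and 0.731, since those transcripts are shorter than the merged exons.

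Counts over all genes moved too. Without the filter they went from 1929 to 2950 in KO against WT, 1861 to 3073 in 41585 against 41584, 0 to 119 in 41585 against KO, 1088 to 1858 in 41584 against KO, 1037 to 1768 in 41589 against KO, 889 to 1544 in SOM against KO, 1219 to 2271 in 41589 against 41585, 0 to 3 in 41589 against 41584, and from 0 to 132, 541 and 1345 in 41584, 41589 and SOM against WT. With only the compared groups they were 4990, 472, 573, 377, 2307 (SOM against KO), 458 (41589 against 41585) and 2076 (SOM against WT), the first 4 in the order KO against WT, 41585 against 41584, 41585 against KO and 41584 against KO. Leaving out 1 library gave 228 to 601 in KO against WT, 359 to 1826 in 41585 against 41584, 414 to 2715 in 41585 against WT, 198 to 1322, 182 to 693 and 106 to 370 in 41584, 41589 and SOM against KO, 312 to 2481 in 41589 against 41585, 0 to 4 in 41585 against KO, 0 to 1 in 41589 against 41584, 0 to 90, 0 to 639 and 0 to 1 in 41584, 41589 and SOM against WT, and 2716 to 6144 in the pooled comparison. Without replicate 2 of 41584 and of 41589 it was 1 in 41589 against 41584. DESeq2 gave 1 in 41585 against KO, and its counts against WT stand with those comparisons. It gave no adjusted p for Fgfr2 and Dusp4 in 41584 against WT.

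The labels do not say that a replicate number marks a shared culture or day. The replicate numbers were not taken as pairs, since the correlation of replicate differences between groups was over 0.1 in only 5 of 15 pairs of groups, with a range of -0.09 to 0.535. With the numbers as a replicate block, the count of the 10 genes called went from 2 to 3 in KO against WT (Dusp6) and from 4 to 5 in 41585 against WT (Fgfr1 at 0.81, edgeR adjusted p = 0.0365). It was unchanged in the other comparisons, with 6 in the pooled one. The counts over all genes with the block were 1 in 41589 against WT and 3 in SOM against WT.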
